A study of Mus musculus with 6 samples.

Results

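The BCL2 family decides whether mitochondria release the proteins that start apoptosis. Its survival members hold the effectors Bax and Bak1 in check, the effectors form pores in the outer mitochondrial membrane, and the BH3-only members bind survival members or effectors and tip the balance toward pore formation. Macrophages depend on macrophage colony-stimulating factor (M-CSF), and Mcl1 and Bcl2a1 are the survival members best known from myeloid cells. The genes described here were chosen by name, with earlier results of these data known. They are the survival members Bcl2, Bcl2l1, Mcl1, Bcl2a1a, Bcl2a1b and Bcl2a1d, the effectors Bax and Bak1, and the BH3-only members Bcl2l11 and Bbc3. These are 10 of the 22248 genes listed, and 9 of them were among the 11687 genes tested.

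RNA was measured in resting bone-marrow-derived macrophages (BMDMs), primary cells that mature from marrow precursors in culture under M-CSF. Control BMDMs came from Lyz2cre mice (3 libraries) and CITED2-deficient BMDMs from Lyz2cre:CITED2Fl/Fl mice (3 libraries), all on a C57BL/6 background. The labels give postnatal week 10 and the methods of the study a younger age. Both genotypes carry Cre recombinase in the myeloid Lyz2 locus, and only the second has floxed Cited2, a coactivator-binding transcriptional regulator. The labels do not say whether each sample came from a separate mouse, so p-values measure the spread between these samples. Deletion depends on Cre activity in each cell. Cited2 checked the labels, with a mean FPKM (fragments scaled by transcript length and by library depth) of 75.5 ± 3.79 in control BMDMs against 8.01 ± 1.10 without CITED2 (SD, n = 3 each).

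The recovered depth was 17289286 to 18952077 fragments per library in control and 22583995 to 26100410 in CITED2-deficient BMDMs, a mean ratio of 1.34. The 9 macrophage markers summed to an FPKM of 5818 to 5889 in control and 5472 to 5555 in CITED2-deficient BMDMs, with 1 higher and 5 lower of 9 tested. Over all tested genes, 16.7% were called higher and 34.6% lower (adjusted p under 0.05, limma), the background for each marker count. Lyz2, whose locus carries Cre in both genotypes, was lower (log2 fold change -1.59), as was Itgam (-0.81), while Fcgr1 was higher (1.48). Fibroblast and stromal markers were higher past the threshold for 8 of 8 tested, with Lum below the filter. Their summed FPKM was 44.6 to 54.1 in control BMDMs and 559, 181 and 182 in CITED2-deficient replicates 1 to 3, and none of these markers was at 0 in all libraries. The 12 neutrophil and precursor markers summed to 744 to 813 in control and 671 to 790 in CITED2-deficient BMDMs, with 3 higher and 6 lower of 10 tested. Mpo (log2 fold change -2.54), Prtn3 (-2.12) and Elane (-2.08) were among the lower genes, while Retnlg (1.74), Ltf (0.90) and Mmp8 (0.70) were higher. Among the other lists, the erythroid and megakaryocyte sum was 315 to 344 against 78.6 to 89.5, almost all of it from Pf4, which macrophages also express. Of the 3 tested genes of that list, Pf4 was lower (-2.07), while Itga2b (0.38) and Ppbp (0.69) were higher. The sums of B cell, T and NK cell, dendritic cell, and mast cell and basophil markers was at most an FPKM of 4.36 in any library. The part of these cell types in the results was not tested. In bulk RNA, fewer cells of a type and less RNA per cell cannot be told apart.

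Among the 9 tested members, 4 were higher and 1 was lower in CITED2-deficient BMDMs (adjusted p under 0.05, limma). Mcl1, Bak1, Bcl2l11 and Bcl2a1d rose and Bcl2a1b fell, so the rises lay in each of the 3 functional classes. Bcl2, Bcl2l1, Bax and Bbc3 did not pass the threshold, and Bcl2a1a was below the filter of a mean FPKM of 1. Over all tested genes, 51.3% were called, 16.7% higher and 34.6% lower, and the median log2 fold change was -0.10. The median of the 9 members was 0.21. The 3 control and 3 CITED2-deficient values did not overlap for 7 of the 9 members, against 59.9% of all tested genes. Of the 9 members, 5 were higher without overlap and 2 were lower without overlap in CITED2-deficient BMDMs, against 19% and 40.9% of all tested genes. After median-ratio scaling, which divides each library by its typical gene, 5 members were higher and 1 was lower, against 23.1% and 21.3% of tested genes. In limma-voom on recovered fragments, 6 members were higher and 1 was lower, against 24% and 22.4% of tested genes.

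**Figure D1:**
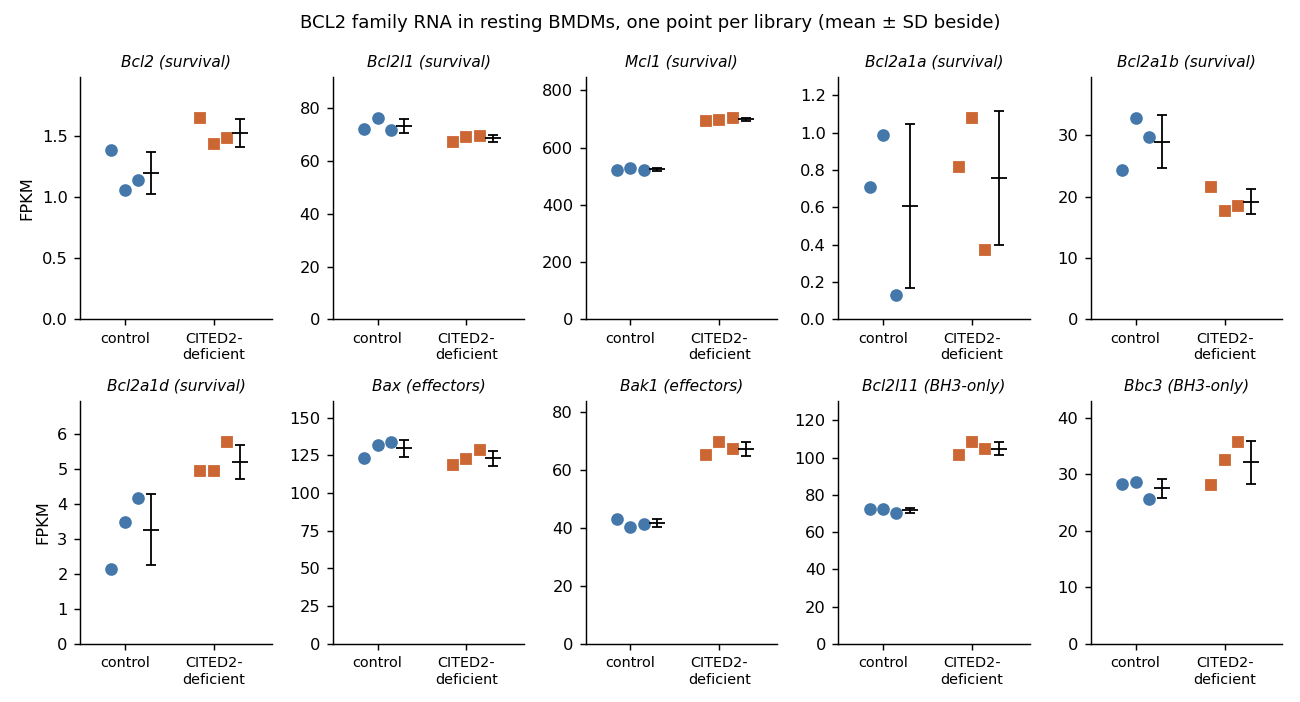
FPKM (y axis, from 0) of the 10 BCL2 family genes in each control library (blue circles) and each CITED2-deficient library (orange squares), with mean and SD (n = 3) beside the points. Mcl1, Bak1 and Bcl2l11 show narrow groups that lie well apart, while the Bax, Bbc3 and Bcl2a1a groups overlap.

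Of the survival members, Mcl1 was by far the most abundant. Mcl1 (ENSMUSG00000038612, chromosome 3, 95658788 to 95663176 in mm10) encodes a short-lived survival protein that binds Bak1 and Bcl2l11. The control libraries had an FPKM of 520, 530 and 522 and the CITED2-deficient libraries one of 694, 698 and 705, in the order of their replicate numbers, as for all genes given by library. The groups did not overlap, and the gap between the groups was far wider than the spread within either. The means were 524 ± 5.14 and 699 ± 5.84 (SD, n = 3 each), and the log2 fold change was 0.41 (limma, standard error [SE] 0.02, adjusted p = 1.03e-06). These values rest on 19585 to 21149 fragments per control library and 33679 to 39358 per CITED2-deficient library. Mcl1 ranked 1187 from the largest rise among the 11687 tested genes, so many genes changed more.

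Bcl2l1 (ENSMUSG00000007659, chromosome 2, 152780668 to 152831728) encodes BCL-XL, a stable survival protein of the outer mitochondrial membrane. Its FPKM was 72.1, 76.5 and 71.7 in control and 67.2, 69.0 and 69.6 in CITED2-deficient libraries. The groups did not overlap, but the highest CITED2-deficient value lay close to the lowest control value. The log2 fold change was -0.096 (95% interval -0.18 to -0.011, adjusted p = 0.0578 from limma), which lies at the median of all tested genes. After median-ratio scaling it was 0.0066. Bcl2 (ENSMUSG00000057329, chromosome 1, 106538178 to 106714274), the founding survival member, was near the filter in all libraries. Its FPKM was 1.39, 1.06 and 1.15 in control and 1.66, 1.44 and 1.49 in CITED2-deficient libraries, from 92 to 211 fragments per library. The log2 fold change was 0.20 (95% interval -0.087 to 0.49, adjusted p = 0.216 from limma), and the groups differed by a narrow margin without overlap. The pseudocount of 1 compresses the change of a gene this low. In limma-voom on the recovered fragments, Bcl2 passed with 0.45 (adjusted p = 0.0124).

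Bcl2a1 is present in the mouse as several near-identical copies on chromosome 9, which encode A1, a survival protein of blood cells. How far their fragments can be told apart depends on the bases that differ, so the start of their coding sequences is shown. Only coding bases were compared, and transcript bases outside the coding sequence, which fragments also cover, were not. Over 519 coding bases in GENCODE vM21, Bcl2a1b differed from Bcl2a1d at 6 bases, Bcl2a1a differed from Bcl2a1d at 7, and Bcl2a1a differed from Bcl2a1b at 11. The longest stretch without a difference was 217 bases between Bcl2a1b and Bcl2a1d and 314 between Bcl2a1a and Bcl2a1d. The first 120 coding bases hold 7 of the 12 positions that differ between any of the copies. They lie in the first coding exon, at chr9:88957051-88957170 for Bcl2a1a (plus strand), chr9:89199360-89199479 for Bcl2a1b (plus strand) and chr9:88731600-88731719 for Bcl2a1d (minus strand). They are given 5′ to 3′ on the coding strand, with capitals at the positions that differ.
Bcl2a1a: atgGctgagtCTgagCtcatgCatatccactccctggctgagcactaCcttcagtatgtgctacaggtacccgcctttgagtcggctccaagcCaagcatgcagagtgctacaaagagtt
Bcl2a1b: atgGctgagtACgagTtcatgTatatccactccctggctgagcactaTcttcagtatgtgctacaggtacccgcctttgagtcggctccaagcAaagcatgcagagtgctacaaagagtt
Bcl2a1d: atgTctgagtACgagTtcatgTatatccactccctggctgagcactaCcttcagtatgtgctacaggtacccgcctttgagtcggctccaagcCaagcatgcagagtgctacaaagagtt

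Bcl2a1b fell and Bcl2a1d rose. Bcl2a1b (ENSMUSG00000089929, chromosome 9, 89199209 to 89207827) was the most abundant copy, with an FPKM of 24.3, 32.9 and 29.7 in control and 21.5, 17.6 and 18.4 in CITED2-deficient libraries. All CITED2-deficient values lay below all control values, and control replicate 1 was the closest to them. The means were 29.0 ± 4.33 and 19.2 ± 2.07 (SD, n = 3 each), and Bcl2a1b fell by 0.57 on the log2 scale (limma, SE 0.11, adjusted p = 0.00214). Bcl2a1d (ENSMUSG00000099974, chromosome 9, 88723285 to 88731914) had an FPKM of 2.15, 3.49 and 4.16 in control and 4.92, 4.93 and 5.77 in CITED2-deficient libraries. Again the groups did not overlap, and the control values were spread over a wide range. The means were 3.26 ± 1.02 and 5.21 ± 0.489 (SD, n = 3 each), and the log2 fold change was 0.57 (limma, SE 0.17, adjusted p = 0.0197). These values rest on only 35 to 130 fragments per library. The Bcl2a1d call was lost without CITED2-deficient replicate 3 (0.51, adjusted p = 0.0721 from limma) and when no filter was used (adjusted p = 0.0741), and the value was 0.37 (adjusted p = 0.0314) without control replicate 1.

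Bcl2a1a (ENSMUSG00000102037, chromosome 9, 88956900 to 88962419) was represented by 11, 14 and 2 fragments in control and 17, 20 and 8 in CITED2-deficient libraries, and its groups overlapped. When every listed gene was tested it had a log2 fold change of 0.15 (95% interval -0.44 to 0.73, adjusted p = 0.724 from limma). Within a library, the ratio of Bcl2a1d to Bcl2a1b does not depend on scaling. It was 0.0881, 0.106 and 0.140 in control and 0.229, 0.280 and 0.313 in CITED2-deficient libraries, with no overlap. Together the copies had a summed FPKM of 27.2, 37.4 and 34.0 in control and 27.3, 23.6 and 24.6 in CITED2-deficient libraries. CITED2-deficient replicate 1 lay just above control replicate 1, so the groups overlapped. The sum fell by 0.36 on the log2 scale (limma, SE 0.10, adjusted p = 0.0171), and this call was lost in 4 of the 6 fits that left out a library. Separately, it was lost after median-ratio scaling and when no filter was used. The recovered fragment numbers were whole for each copy in each library. Reads that match more than 1 copy may still have been placed or left out in an unknown way. Bcl2a1b also overlaps the protein-coding gene Gm29094 on the same strand, and Bcl2a1d overlaps Gm10634, annotated as antisense, so these fragments could be shared.

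The effectors Bax and Bak1 open the outer mitochondrial membrane and can largely stand in for each other. Bak1 (ENSMUSG00000057789, chromosome 17, 27019810 to 27029009) had an FPKM of 43.2, 40.4 and 41.3 in control and 65.1, 69.8 and 67.3 in CITED2-deficient libraries. The groups were far apart and tight, at 41.6 ± 1.42 and 67.4 ± 2.34 (SD, n = 3 each). The log2 fold change of 0.68 (limma, SE 0.04, adjusted p = 1.59e-06) ranked 758 from the largest rise among all tested genes. Bak1 overlaps Ggnbp1 on the opposite strand, whose mean FPKM was 1.99 ± 0.220 in control and 1.17 ± 0.186 in CITED2-deficient libraries (SD, n = 3 each). The strand setting of the quantification is not stated, so these genes could share fragments, and the part of this overlap in the Bak1 result was not tested. Bak1 is also the member whose recovered fragment numbers were not all whole. Those of Ggnbp1 were not all whole either, and the cause was not tested.

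Bax (ENSMUSG00000003873, chromosome 7, 45461697 to 45466898) did not follow Bak1. Its FPKM was 123, 132 and 134 in control and 119, 123 and 128 in CITED2-deficient libraries, with overlapping groups. The log2 fold change was -0.074 (95% interval -0.17 to 0.022, adjusted p = 0.177 from limma), and it was 0.029 after median-ratio scaling. Bak1 therefore made up a larger part of the effector RNA. It formed 25.9, 23.4 and 23.6% of the summed Bak1 and Bax FPKM in control libraries and 35.5, 36.2 and 34.4% in CITED2-deficient libraries. No control library came near the CITED2-deficient range. Bax remained the more abundant of the pair in all 6 libraries.

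**Figure D2:**
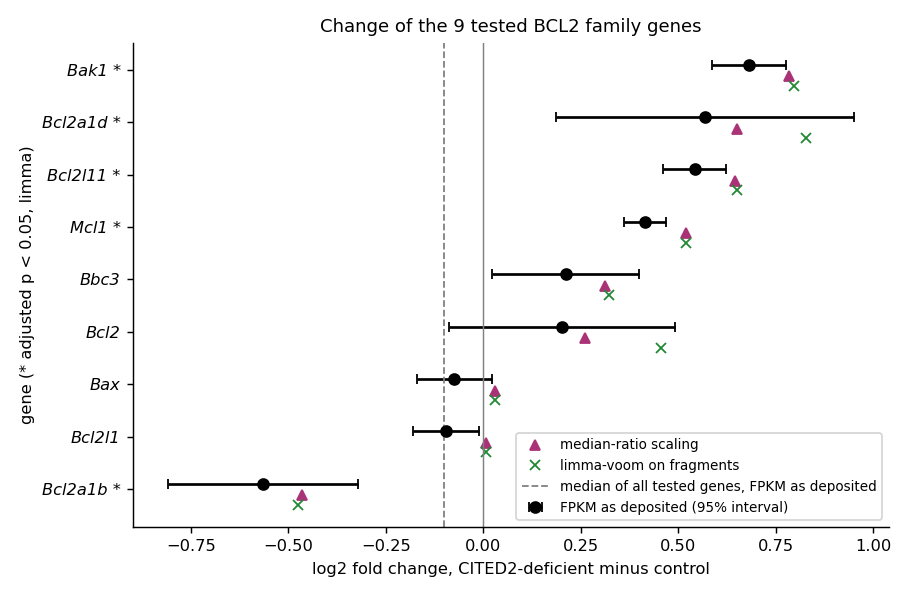
Log2 fold change (x axis, CITED2-deficient minus control) of the 9 tested members, as black points with 95% intervals for FPKM as deposited, purple triangles after median-ratio scaling and green crosses for limma-voom on recovered fragments. Bak1, Bcl2a1d, Bcl2l11 and Mcl1 lie to the right of 0 under all 3 and Bcl2a1b to the left, while Bax and Bcl2l1 lie at -0.074 and -0.096 as deposited and just above 0 after scaling.

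The BH3-only members start the pathway. Bcl2l11 (ENSMUSG00000027381, chromosome 2, 128126038 to 128162547) encodes BIM, which is known for killing blood cells after growth factor withdrawal. Its FPKM was 72.4, 72.2 and 70.4 in control and 101, 109 and 105 in CITED2-deficient libraries. The values rose in all CITED2-deficient libraries by several times the spread within the groups, from 71.7 ± 1.13 to 105 ± 3.56 (SD, n = 3 each). The log2 fold change was 0.54 (limma, SE 0.04, adjusted p = 2.45e-06), from 2653 to 5802 fragments per library. Its mean FPKM was above that of Bbc3 in both genotypes.

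Bbc3 (ENSMUSG00000002083, chromosome 7, 16308393 to 16318205) encodes PUMA, a BH3-only protein induced by p53. Its FPKM was 28.2, 28.7 and 25.6 in control and 28.1, 32.6 and 35.7 in CITED2-deficient libraries. CITED2-deficient replicate 1 lay within the control range, and the other two lay above it. The log2 fold change was 0.21 (95% interval 0.023 to 0.40, adjusted p = 0.0605 from limma). Of the 6 fits that left out a library, 1 passed, without CITED2-deficient replicate 1 (0.30, adjusted p = 0.00617 from limma), and the value was 0.13 (adjusted p = 0.199) without CITED2-deficient replicate 3. Bbc3 also passed after median-ratio scaling (0.31, adjusted p = 0.0157) and in limma-voom (0.32, adjusted p = 0.00541).

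The survival members with Bcl2l2 summed to an FPKM of 636, 660 and 644 in control and 808, 807 and 817 in CITED2-deficient libraries. These sums depend on the scaling between libraries, whereas shares and ratios within a library do not. Mcl1 formed 81.8, 80.3 and 81.0% of this sum in control and 85.9, 86.5 and 86.3% in CITED2-deficient libraries, so most survival RNA came from Mcl1 in both genotypes. The share of Bcl2l1 was 11.4 ± 0.230% and 8.47 ± 0.123%, and that of the Bcl2a1 copies was 5.07 ± 0.717% and 3.10 ± 0.239% (SD, n = 3 each). The ratio of Mcl1 to Bcl2l1 was 7.22, 6.93 and 7.28 in control and 10.3, 10.1 and 10.1 in CITED2-deficient libraries. The ratio of Mcl1 to Bcl2l11 was 7.18, 7.34 and 7.42 in control against 6.84, 6.43 and 6.75 in CITED2-deficient libraries, again without overlap. The survival sum over the sum of Bax and Bak1 was 3.77 ± 0.0859 in control and 4.25 ± 0.124 in CITED2-deficient libraries (SD, n = 3 each). These sums and ratios were not tested, and RNA gives no measure of the proteins, whose lifetimes differ widely within the family.

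**Figure D3:**
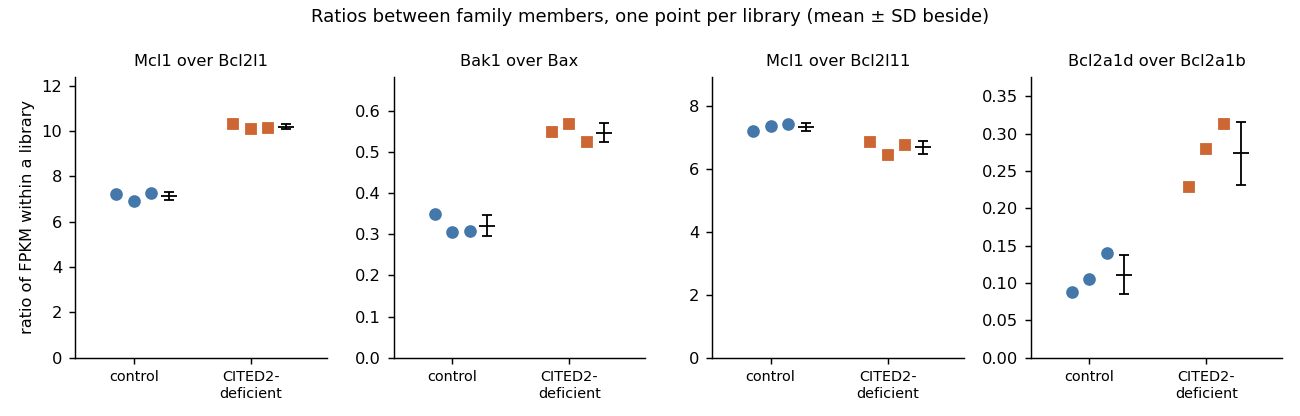
Ratio of FPKM between pairs of members within each library (y axis, from 0), control in blue circles and CITED2-deficient in orange squares, with mean and SD (n = 3) beside the points. The groups do not overlap in any of the 4 panels, with Mcl1 over Bcl2l1, Bak1 over Bax and Bcl2a1d over Bcl2a1b higher and Mcl1 over Bcl2l11 lower in CITED2-deficient BMDMs.

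Leaving out any 1 library did not end the calls of Mcl1, Bak1, Bcl2l11 or Bcl2a1b. Without CITED2-deficient replicate 1, which held the highest stromal marker sum, the log2 fold changes were 0.42 for Mcl1, 0.71 for Bak1, 0.57 for Bcl2l11, 0.60 for Bcl2a1d and -0.65 for Bcl2a1b. That fit kept CITED2-deficient replicates 2 and 3, whose stromal marker sums of 181 and 182 lay above 44.6 to 54.1 in control. The part of stromal RNA in the member values was not tested.

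Bcl2l2, the survival protein BCL-W, had an FPKM of 15.2 ± 0.0954 in control and 16.3 ± 1.31 in CITED2-deficient libraries (SD, n = 3 each) and did not pass (0.087, adjusted p = 0.283 from limma), though it did after median-ratio scaling (0.18, adjusted p = 0.0362). Bok, a further effector-like member, rose from an FPKM of 0.666, 0.993 and 1.57 in control to 3.83, 1.77 and 2.54 in CITED2-deficient libraries (log2 fold change 0.82, SE 0.23, adjusted p = 0.0137 in limma). Its highest value was in CITED2-deficient replicate 1, the library with the most stromal marker RNA. The part of stromal RNA in the Bok values was not tested. The Bok call was lost without a filter (adjusted p = 0.0526 from limma).

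Of the other BH3-only genes, Bmf, which is known for sensing loss of attachment, fell from an FPKM of 27.8, 29.1 and 28.0 to 23.0, 22.4 and 20.8 (log2 fold change -0.35, SE 0.05, adjusted p = 0.000412 in limma). Bmf thus moved opposite to Bcl2l11, and its groups did not overlap. Bad, which survival kinases keep inactive, fell from 22.7 ± 2.13 to 18.6 ± 1.55 (SD, n = 3 each; -0.28, adjusted p = 0.0174 from limma), a call lost after median-ratio scaling (-0.18, adjusted p = 0.11), after quantile normalization (adjusted p = 0.0668), in limma-voom (adjusted p = 0.113), without a filter (adjusted p = 0.0535) and in 4 of the 6 fits without a library. Pmaip1, which encodes NOXA, an inhibitor of Mcl1, had 5.02 ± 0.0890 and 5.91 ± 0.0670 (SD, n = 3 each). The Pmaip1 groups did not overlap, and its rise of 0.20 lay just past the threshold (limma, adjusted p = 0.0432). Pmaip1 missed the threshold in all 6 fits without a library and with a replicate block (adjusted p = 0.0776). It also missed without a filter (adjusted p = 0.0872) and with a mean FPKM of at least 5 (adjusted p = 0.0501). Pmaip1 did pass after median-ratio scaling (0.29, adjusted p = 0.00974), after quantile normalization (0.27, adjusted p = 0.0117) and in limma-voom (0.34, adjusted p = 0.00919). Bid, cleaved by caspase-8 to link death receptors with mitochondria, did not pass (-0.021, 95% interval -0.12 to 0.083, adjusted p = 0.726 from limma), and its sign turned after median-ratio scaling (0.079). Bik was below the filter, and Bcl2l10, Bcl2a1c and Hrk were not found by these names among the genes listed. Of 8 tested BNIP3-type and other BCL2-like genes, 0 were higher and 2 were lower in limma, against 16.7% and 34.6% of all tested genes. These 2 were Bnip3l (-0.12) and Bnip2 (-0.095), and neither was called after median-ratio scaling, where Bnip2 was at 0.0086. Each of these calls was also lost in 5 of the 6 fits without a library, and Bnip3l was at -0.077 without control replicate 2. None of the 8 was called in limma-voom either, and only the same 2 had an unadjusted p under 0.05 as deposited (limma).

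Downstream of the mitochondria, 1 of 10 apoptosome and executioner genes was higher and 6 were lower, against 16.7% and 34.6% of all tested genes. That background holds for each list given here as deposited, and 23.1% higher and 21.3% lower is the background after median-ratio scaling. The median of the apoptosome list was -0.16 against -0.10 over all tested genes. Cycs, which encodes the cytochrome c that leaves mitochondria to build the apoptosome, rose from 14.8 ± 0.154 to 20.5 ± 0.610 (SD, n = 3 each; 0.45, adjusted p = 6.68e-05 from limma). Endog, a mitochondrial nuclease, fell by 0.60 on the log2 scale (adjusted p = 0.00107 from limma) and Casp6, an executioner caspase, fell by 0.56 (adjusted p = 0.000111). After median-ratio scaling the list had 2 genes higher and 4 lower.

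Among inhibitors of apoptosis and their antagonists, 2 of 10 tested genes were higher and 1 was lower. Naip6 (0.35) and Naip2 (0.31) were higher, and these sensors of bacterial proteins are related in sequence, so their fragments may be divided between them. Birc3, which encodes cIAP2, was lower (-0.18, adjusted p = 0.00704 from limma), a call lost after median-ratio scaling (-0.075), where 5 genes were higher and 0 lower.

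In the death receptor list 3 of 10 genes were higher and 4 lower. Mlkl, the executioner of necroptosis, rose from an FPKM of 7.30, 8.95 and 8.12 in control to 20.7, 24.1 and 25.3 in CITED2-deficient libraries (1.42, adjusted p = 2.13e-06 from limma). Tnfrsf10b, the receptor for the death ligand TRAIL, rose from 0.840 ± 0.0986 to 3.61 ± 0.362 (SD, n = 3 each; 1.32, adjusted p = 1.93e-05 from limma). Cflar, which encodes the caspase-8 inhibitor FLIP, rose from 65.4 ± 1.96 to 99.5 ± 5.27 (SD, n = 3 each; 0.60, adjusted p = 5.48e-06 from limma). After median-ratio scaling the list had 4 genes higher and 1 lower.

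Of 9 tested anion channel and mitochondrial membrane genes, 0 were higher and 2 were lower, Bcap31 (-0.18) and Vdac1 (-0.14), and neither was called after median-ratio scaling, where 3 other genes were higher. Of 11 regulators of MCL1 and BIM protein, 2 were higher and 4 lower, or 4 higher and 2 lower after median-ratio scaling. The dynein light chains that anchor BIM and BMF moved in opposite directions, with Dynll1 at 0.34 (adjusted p = 0.000149 from limma) and Dynll2 at -0.33 (adjusted p = 0.000265). Mapk3, the kinase ERK1, was at -0.23 (adjusted p = 0.000207 from limma).

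The list of p53 and its targets shares Bax, Bbc3, Pmaip1 and Fas with the lists above. Like them, it was chosen with earlier results of these data known. It had 9 genes higher and 2 lower of 17 tested, against 16.7% and 34.6% of all tested genes. Its median was 0.21, and after median-ratio scaling 10 genes were higher and 1 was lower, against 23.1% and 21.3%. Plk2, a stress-induced kinase, rose from 124 ± 2.94 to 271 ± 14.1 (SD, n = 3 each; 1.12, adjusted p = 5.03e-08 from limma). Cdkn1a, which encodes the cell cycle inhibitor p21, rose from 39.9 ± 2.05 to 86.4 ± 0.738 (1.10, adjusted p = 6.68e-08). Sesn1, a stress-induced regulator of metabolism, fell from 114 ± 6.01 to 47.5 ± 1.72 (-1.24, adjusted p = 5.38e-08). Of the members counted in this list, Bax was called in neither fit and Bbc3 was called higher after median-ratio scaling.

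**Figure D4:**
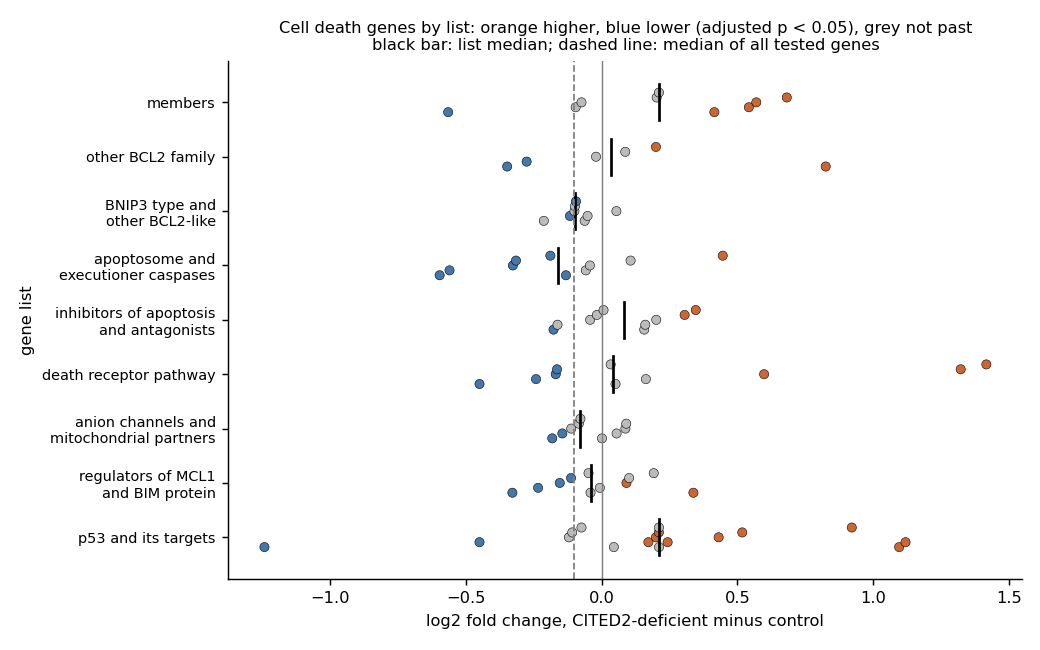
Log2 fold change (x axis, CITED2-deficient minus control, FPKM as deposited) of each tested gene in the lists of cell death genes, with orange for higher and blue for lower past the threshold, grey for genes not past it, a black bar at each list median and a dashed line at -0.10, the median of all tested genes. The members and the p53 list have medians of 0.21, and the apoptosome list has the lowest median, at -0.16.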

How the data were processed

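RNA-seq of resting BMDMs was analysed in 6 libraries, 3 per genotype. The authors made stranded, rRNA-depleted total RNA libraries, used STAR for alignment to mm10, and deposited Cuffdiff gene-level FPKM based on a GENCODE annotation (tool versions: not given in the sources used here). FPKM divides by length and depth, so a change in a few abundant genes moves all others. The members and gene lists were chosen with earlier results of these data known.

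The 11687 of 22248 genes whose mean FPKM reached 1 were fitted as log2(FPKM + 1) in limma-trend (limma 3.58.1, R 4.3.3), with 2-sided p-values adjusted by Benjamini-Hochberg and a threshold of 0.05. Fold changes are on that scale, which understates the change of low genes. Lists are described by counts and medians. The text names all members, the other tested survival, effector and BH3-only genes and at most the 3 called genes with the largest absolute log2 fold change of each other list. Whole fragments were recovered from the FPKM steps with GENCODE vM21 lengths for 21374 of 22239 matched genes (96.1%, with a tolerance of 0.02 fragments in each of the 6 libraries). The steps also gave the depth. The limma-voom alternative with TMM scaling used the fragment numbers of 11682 matched genes past the filter, rounded where they were not whole, as for Bak1. It called 2803 genes higher and 2617 lower. The fit was tested on simulated data. A single-value exact permutation test of 3 against 3 libraries cannot go below p = 0.1 and was not used. Other pseudocounts, filters, scalings, variance models, a replicate block and fits without each library were the alternatives.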

Additional observations from a re-analysis of the deposited data

How the results depend on the processing

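Mcl1, Bak1, Bcl2l11 and Bcl2a1b kept their direction and their call in every alternative fit. With a fold change of at least 1.5 required as well, 1549 of the 11687 tested genes were called in either direction, with 1 member higher (Bak1) and 0 lower. Members called higher numbered 5 after median-ratio scaling and after quantile normalization, 6 in limma-voom and 3 without a filter, against 4 as reported. Over all genes fitted, 5390 were called in either direction after quantile normalization and 5821 without a filter, against 5994 as reported. For those 2 alternatives and the fold threshold, the calls over all genes were not split by direction. Median-ratio scaling moved the median of all tested genes by 0.094 on the log2 scale and the calls to 23.1% higher and 21.3% lower. Signs turned for Bax (0.029 after median-ratio scaling and 0.030 in limma-voom), Bcl2l1 (0.0066 and 0.0080), Bnip2 (0.0086 and 0.0086) and Bid (0.079 and 0.082, and 0.038 after quantile normalization), none of them past the threshold. The summed Bcl2a1 copies lost their call without a filter (-0.36, adjusted p = 0.0627 from limma) and after median-ratio scaling (-0.26, adjusted p = 0.0707). Leaving out each library gave -0.49 to -0.27, with 2 of 6 fits past the threshold, and the cause was not tested. Same-numbered libraries did not deviate together (correlations of 0.014, 0.0078 and 0.040 over genes), so the numbers were not taken as pairs. With the number as a replicate block, 5708 genes were called, with 4 members higher and 1 lower, and the summed Bcl2a1 copies were at -0.36 (adjusted p = 0.0315 from limma), while Pmaip1 and Bnip2 lost their calls. Depth limits Bcl2a1a, at 2 to 20 fragments per library, and Bcl2a1d, at 35 to 130.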
